A study of Mus musculus with 15 samples.

Results

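The semaphorins, plexins, slits, robos and netrins are families of guidance cues and receptors, first known for steering growing axons and also used by blood vessels. Their expression was compared between freshly sorted microvascular endothelial cells of mouse brain, heart and liver. The members were chosen by gene symbol in the array's annotation. They were 46 of the 19938 genes measured. Of the 46, 7 were secreted semaphorins of class 3, 13 were semaphorins of classes 4 to 7, 9 were plexins, 3 slits, 4 robos, 4 netrins and 6 netrin receptors (4 Unc5 genes, Dcc and Neo1). All 46 RefSeq symbols that match this pattern were on the array. Sema4d, Sema6b and Unc5d had 2 probe sets each, and the others had 1.

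All 3 groups came from mice of the Tie2-GFP strain on the FVB background, 8 to 12 weeks old, in which the Tek (Tie2) promoter drives green fluorescent protein. That promoter is known to be active in endothelium and also in some blood-lineage cells, so a GFP sort need not hold endothelium alone. Brain had 5 arrays of pools of 6 mice, heart 5 arrays of pools of 4 mice and liver 5 arrays of pools of 2 mice, with both sexes in equal number. The tissues also differed in the enzymes and temperature of digestion, in a Percoll step used for liver alone and in the size of the pool, which cannot be told apart from the tissue. Values are log2 RMA values, so 1 unit is a 2-fold change, and each probe set has its own scale, so that levels are compared across arrays for 1 gene and not between genes.

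As background, plexins are the main receptors of semaphorins and carry a cytoplasmic domain that acts on small GTPases of the Ras and Rap family. Most class 3 semaphorins bind a neuropilin (Nrp1 or Nrp2), which then engages a plexin, whereas Sema3e can bind Plxnd1 directly. Slits bind members of the robo family, and netrins bind Dcc, neogenin (Neo1) and the Unc5 receptors. Plxnd1, Robo4 and Unc5b are known as receptors of endothelium.

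The upstream windows of 5 members are printed because these genes had the largest differences toward brain (Sema3c, Sema7a) and liver (Plxnc1, Robo1, Sema3d). Each is the RefSeq window from 250 bases before to 50 bases after an annotated start, in build GRCm38.p6, read 5′ to 3′ in the direction of the gene, and capitals mark CG pairs. The windows are Sema3c at chr5:17574566-17574865 on the + strand with 42 CG pairs, Sema7a at chr9:57939862-57940161 on the + strand with 23, Plxnc1 at chr10:94944796-94945095 on the - strand with 30, Robo1 at chr16:72662899-72663198 on the + strand with 15 and Sema3d at chr5:12382916-12383215 on the + strand with 8. The median over all 32851 windows of the table was 7 CG pairs.
Sema3c: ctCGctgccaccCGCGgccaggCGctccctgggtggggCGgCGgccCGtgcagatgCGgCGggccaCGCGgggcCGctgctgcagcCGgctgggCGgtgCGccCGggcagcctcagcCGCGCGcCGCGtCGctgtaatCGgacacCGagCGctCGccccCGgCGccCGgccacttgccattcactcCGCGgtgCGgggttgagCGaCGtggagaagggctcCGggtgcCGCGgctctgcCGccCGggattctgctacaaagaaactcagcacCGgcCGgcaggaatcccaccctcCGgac
Sema7a: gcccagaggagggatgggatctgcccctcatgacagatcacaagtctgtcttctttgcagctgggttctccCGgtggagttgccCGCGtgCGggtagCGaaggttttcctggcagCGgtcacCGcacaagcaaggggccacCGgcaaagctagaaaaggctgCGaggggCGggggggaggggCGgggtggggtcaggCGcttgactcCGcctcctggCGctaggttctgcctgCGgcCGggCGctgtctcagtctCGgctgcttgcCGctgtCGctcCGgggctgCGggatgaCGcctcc
Plxnc1: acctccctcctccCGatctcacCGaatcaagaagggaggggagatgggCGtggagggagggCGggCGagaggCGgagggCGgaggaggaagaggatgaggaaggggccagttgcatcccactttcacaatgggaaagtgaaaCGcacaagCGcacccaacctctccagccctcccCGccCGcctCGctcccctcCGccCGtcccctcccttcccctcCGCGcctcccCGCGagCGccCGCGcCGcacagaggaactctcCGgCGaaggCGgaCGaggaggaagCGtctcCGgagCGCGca
Robo1: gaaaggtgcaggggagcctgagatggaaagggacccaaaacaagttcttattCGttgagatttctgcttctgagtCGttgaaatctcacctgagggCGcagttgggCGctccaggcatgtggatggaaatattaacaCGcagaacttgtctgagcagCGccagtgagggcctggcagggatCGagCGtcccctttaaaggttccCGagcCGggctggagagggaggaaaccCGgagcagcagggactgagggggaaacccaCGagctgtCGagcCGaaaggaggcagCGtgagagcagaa
Sema3d: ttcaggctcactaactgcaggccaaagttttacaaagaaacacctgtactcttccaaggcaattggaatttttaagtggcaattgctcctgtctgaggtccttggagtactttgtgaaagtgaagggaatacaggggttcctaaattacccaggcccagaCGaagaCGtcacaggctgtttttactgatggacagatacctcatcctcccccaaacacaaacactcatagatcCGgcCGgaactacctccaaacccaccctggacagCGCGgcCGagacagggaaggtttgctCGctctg

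RefSeq windows were used for 37 of the 46 members, 50 windows in all, since some genes have several starts. Dcc, Ntn1, Plxna1, Plxna4, Sema3b, Sema3f, Sema6a, Slit1 and Unc5d had none among the windows used. Member windows on chromosome 18, where Dcc and Sema6a lie, were left out, while the set of all windows kept that chromosome. The member windows had a median of 17 CG pairs and 64.0% G and C, against 7 pairs and 52.7% over all windows. Of the printed windows, that of Sema3c had 42 CG pairs and that of Sema3d, on the same chromosome, had 8. A TCF/LEF core (TCAAAG, on either strand) was in 3 of the 50 member windows (Sema6d, Sema3e and Robo4) and in 16.0% of all windows. An ETS core (CCGGAA) was in 5 (Sema4a, Sema3d, Sema4b, Plxnb1 and Unc5b) against 14.9%, and a GATA core (AGATAA) in 1 (Robo2) against 11.18%. Among the printed windows only that of Sema3d held any of the 3 cores, an ETS core starting 14 bases before the annotated start.

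The arrays were checked for their tissue and for other cells before the members were read. Brain markers (7 genes, among them Slc2a1 and Mfsd2a) averaged 10.91 to 11.37 on the brain arrays and at most 6.20 elsewhere. Heart markers (6 genes, among them Meox2 and Tcf15) averaged 10.59 to 10.88 on the heart arrays and at most 6.69 elsewhere. Liver sinusoidal markers (7 genes, among them Stab2 and Lyve1) averaged 10.97 to 11.29 on the liver arrays and at most 6.10 elsewhere. Markers of other cells were raised as well. In heart 15 of 16 cardiomyocyte markers, 5 of 11 fibroblast markers and 3 of 13 markers of pericytes and smooth muscle stood above both other tissues, and the cardiomyocyte list averaged 7.59 to 8.99, highest in replicates 1 and 3, against 5.83 to 6.02 in brain. In liver 13 of 18 macrophage markers and 9 of 11 hepatocyte markers were higher than in both, as were 2 of 6 stellate cell markers, while 5 of 13 markers of pericytes and smooth muscle were lower, and the macrophage list averaged 5.16 to 5.36 in brain and 5.21 to 5.49 in heart. The liver arrays fell into separate levels on the macrophage list, at 7.42, 7.96 and 7.65 in replicates 1, 3 and 4 and at 5.74 and 5.55 in replicates 2 and 5. The hepatocyte list was highest in replicates 2 and 5, at 7.22 and 7.40, against 7.11, 6.96 and 6.82 in replicates 1, 3 and 4. Liver arrays 2 and 5 were thus low for macrophage markers and not for hepatocyte markers. Brain replicate 1 was the highest brain array for pericyte and smooth muscle markers, at 7.74 against 6.15 to 6.84 in the others. It was also the highest for the fibroblast list (5.93 against 5.44 to 5.53) and the astrocyte list (6.12 against 5.73 to 5.77). The neuron list, relevant because these genes are best known from neurons, stayed at 4.95 to 5.06 (brain), 4.86 to 5.08 (heart) and 4.62 to 4.96 (liver), with 0 of 10 genes higher in brain than in both. Astrocyte and oligodendrocyte lists likewise had 0 of 8 and 0 of 8 higher in brain. In bulk RNA of this kind, fewer cells of a type and less RNA per cell cannot be told apart. As a rough mark of a low level, 95% of 1027 olfactory receptor genes, which endothelium is not known to use, had values under 5.71. Probe sets differ in how they bind, so the mark is not a detection limit. Where the lower of the compared means lay under it, the fold is given against the mark as "at least", and where both did, no fold is given.

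**Figure D1:**
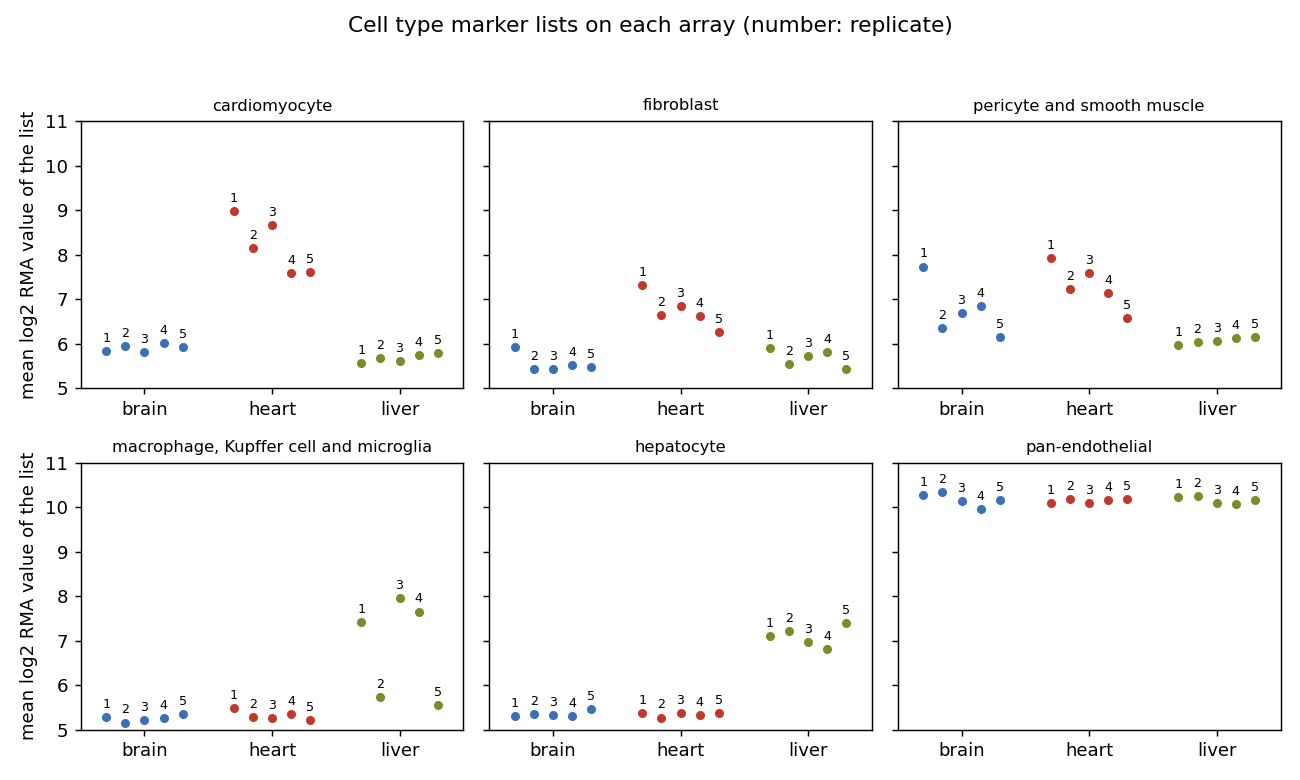
Mean log2 RMA value of 6 marker lists (y axis) on each of the 15 arrays (points, numbered by replicate) of brain, heart and liver (x axis). Cardiomyocyte markers are raised on all heart arrays, up to 8.99 in replicate 1, and macrophage markers on liver arrays 1, 3 and 4, while pan-endothelial markers lie between 9.96 and 10.33 throughout.

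Of the 46 guidance genes, 20 were called in at least 1 pair of tissues (43.5%, where 37.8% of all genes were) and 26 in none. A difference was called when its adjusted p was under 0.05 in a limma fit of all 19938 genes over the 15 arrays. Between brain and heart 7 members were called higher in brain (15.2% of the members, where 8.29% of all genes were) and 7 lower (15.2% against 7.11%). Between brain and liver 9 were higher in brain (19.6% against 11.1%) and 10 lower (21.7% against 14.0%). Between heart and liver 7 were higher in heart (15.2% against 11.5%) and 8 lower (17.4% against 16.3%), so this last pair had shares nearest to those of all genes. The median size of a member's difference was 0.11, 0.16 and 0.21 in these 3 pairs, and 0.13, 0.14 and 0.16 over all genes. In 44 of the 48 calls the arrays of the 2 tissues did not overlap (91.7%, against 71.5% of the calls over all genes).

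Liver and brain had most of the members that stood apart from both other tissues, and heart had few. In liver 8 members were higher than in both (17.4% of the members, 10.4% of all genes) and 6 lower (13.0%, 5.64%). The 8 were Plxnc1, Robo1, Plxnb2, Sema3d, Ntn4, Sema4b, Plxnd1 and Sema3f, and the 6 were Sema7a, Neo1, Unc5b, Sema5a, Sema3g and Sema3c. In brain 6 were higher (13.0%, 4.7%), namely Sema3c, Sema7a, Sema5a, Slit2, Neo1 and Sema3g, and 6 lower (13.0%, 2.82%), namely Plxnd1, Sema3d, Sema6d, Sema3f, Plxnc1 and Sema6a. In heart Sema3a was higher (1 member, 2.17%, 3.73%) and Ntn4 lower (1 member, 2.17%, 3.27%). Several genes stood in 2 of these groups because their 3 levels were stepped, with heart between brain and liver. These were Sema3c, Sema3d, Sema3f, Sema3g, Sema5a, Sema7a, Plxnc1, Plxnd1 and Neo1. Ntn4 also stood in 2 groups, with brain between heart and liver. Some of these steps lay between levels that were both below the olfactory receptor mark. They were heart to liver for Sema3c and brain to heart for Sema3d and Plxnc1. The Sema3c step also had overlapping arrays and its call depended on single arrays.

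**Figure D2:**
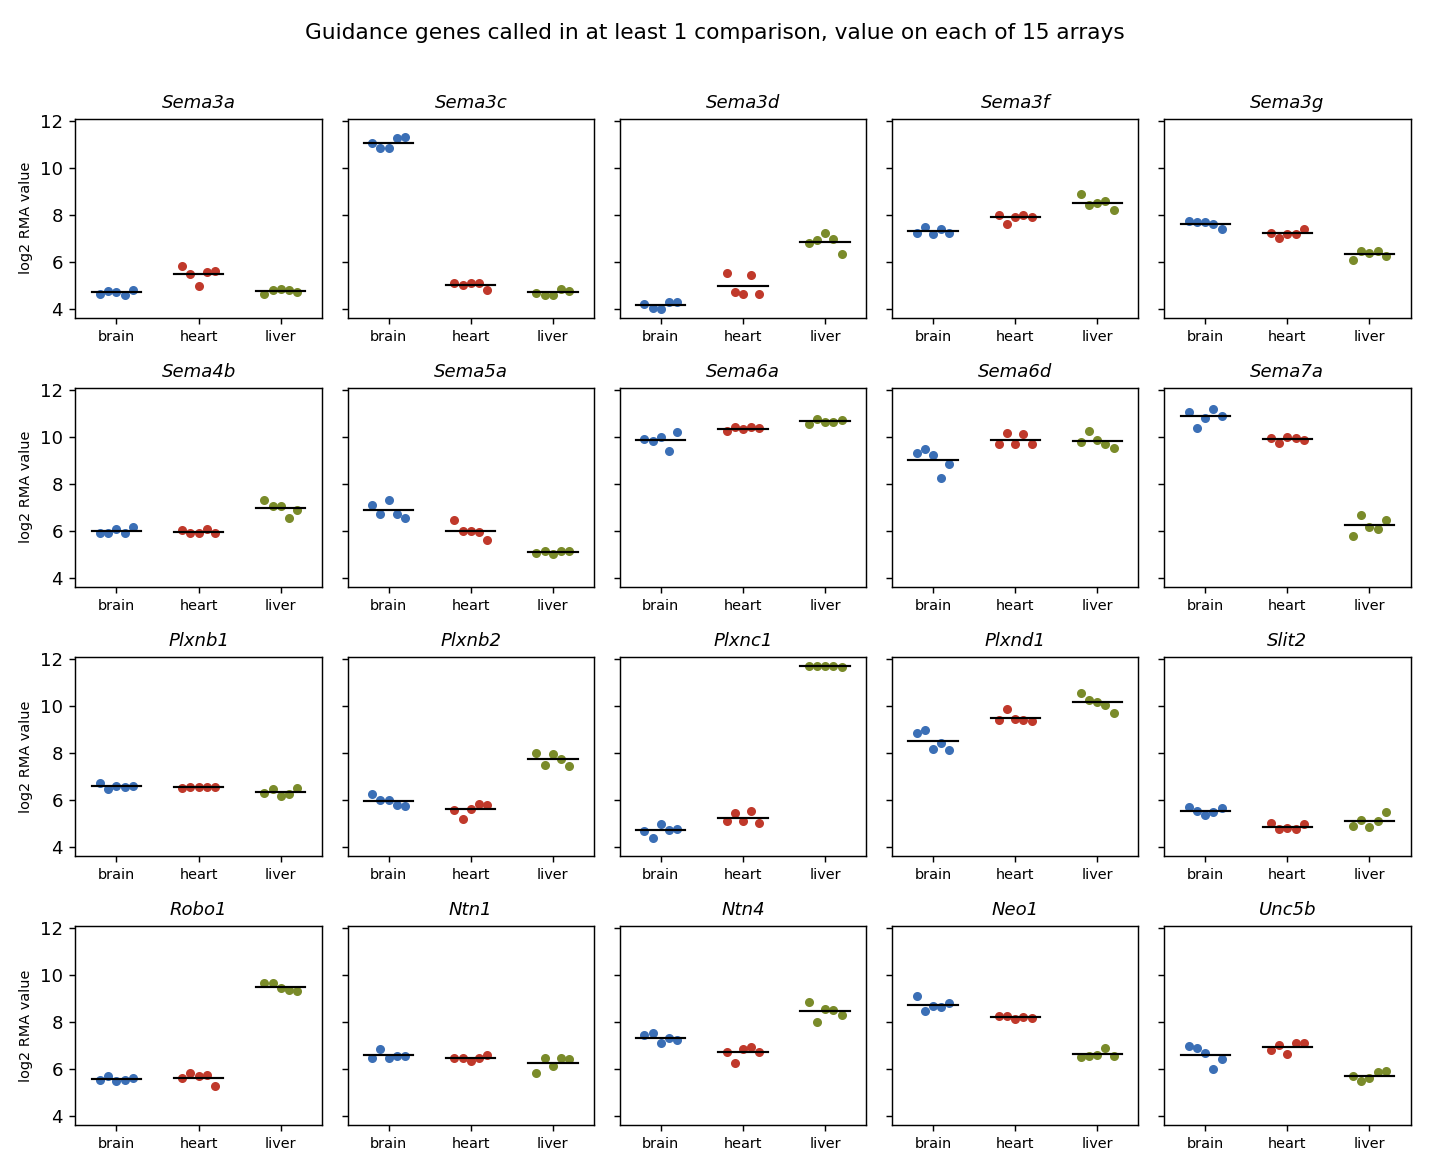
Log2 RMA value (y axis) of the 20 guidance genes called in at least 1 comparison, on each of the 5 brain, 5 heart and 5 liver arrays (x axis; points are arrays, lines are means). Sema3c stands out in brain at 10.84 to 11.32, and Plxnc1 and Robo1 stand out in liver at 11.65 to 11.69 and 9.30 to 9.68.

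Among the secreted class 3 semaphorins, Sema3c was highest in brain, Sema3d in liver and Sema3a in heart, and Sema3f and Sema3g ran in opposite directions along brain, heart and liver. Sema3c (probe set 10519886), a ligand that signals through neuropilins and Plxnd1, was at 11.03, 10.84, 10.85, 11.24 and 11.32 on brain arrays 1 to 5. It was at 5.10, 4.995, 5.11, 5.08 and 4.81 in heart and at 4.67, 4.58, 4.60, 4.85 and 4.77 in liver. Every brain array lay far above every other array, and the heart and liver arrays overlapped. Brain exceeded heart by a log2 difference of 6.04 (SE 0.10, at least 40.7-fold, adjusted p = 6.12e-17) and liver by 6.37 (SE 0.10, at least 40.7-fold, adjusted p = 4.25e-18). Heart minus liver was 0.33 (adjusted p = 0.0224), and leaving out any of 4 arrays ended that call, namely heart replicate 1 (0.31, adjusted p = 0.0511), heart replicate 3 (adjusted p = 0.0531), liver replicate 2 (adjusted p = 0.0525) or liver replicate 3 (adjusted p = 0.0566).

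Sema3d, whose product is another secreted ligand of the class, was at 6.81, 6.92, 7.24, 6.95 and 6.32 on liver arrays 1 to 5. It was at 5.50, 4.71, 4.62, 5.43 and 4.64 in heart and at 4.18, 4.02, 4.01, 4.28 and 4.27 in brain. The 3 tissues did not overlap, and within heart replicates 1 and 4 lay above the other three. Liver exceeded heart at least 2.20-fold and brain at least 2.20-fold (brain minus liver -2.70, SE 0.19, adjusted p = 2.6e-09). Brain minus heart was -0.83 (adjusted p = 0.00403), between levels that both lay below the mark. On liver arrays 2 and 5, where macrophage markers were low and hepatocyte markers highest, brain minus liver was -2.47 (adjusted p = 3.75e-06). What either cell type adds to the Sema3d level was not tested.

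Sema3a, the founding member of the class and a repellent that acts through Nrp1, was at 5.80, 5.47, 4.96, 5.54 and 5.61 on heart arrays 1 to 5. It was at 4.62, 4.74, 4.73, 4.58 and 4.79 in brain and at 4.63, 4.80, 4.84, 4.80 and 4.71 in liver. The lowest heart array, replicate 3, still lay above every other array. Brain minus heart was -0.78 (adjusted p = 0.000101) and heart minus liver 0.72 (adjusted p = 0.000139). Its heart mean of 5.48 was below the olfactory receptor mark, as were its other means, so no fold is given. Cardiomyocyte and fibroblast markers were highest in heart replicates 1 and 3, which held the highest and the lowest Sema3a value. Without both arrays the difference over liver was 0.79 (adjusted p = 3.58e-06), and the part of cardiomyocytes and fibroblasts was not tested.

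Sema3f, known as an inhibitor of vessel growth that binds Nrp2, was at 7.30 ± 0.13 (brain), 7.88 ± 0.16 (heart) and 8.51 ± 0.24 (liver) (mean ± SD, n = 5 each; later triplets keep this order of tissues). Its arrays did not overlap between tissues, and each step was called (adjusted p = 0.00117 for brain and heart, 0.000364 for heart and liver). With only liver arrays 2 and 5 the heart minus liver difference was -0.42 (adjusted p = 0.0334), against -0.63 with all. Sema3g, an endothelial class 3 ligand that also binds Nrp2, stepped the other way, at 7.62 ± 0.13, 7.20 ± 0.13 and 6.32 ± 0.15. Brain exceeded liver 2.48-fold (adjusted p = 3.28e-09) and heart 1.34-fold (adjusted p = 0.0032). Sema3b and Sema3e passed in no comparison. Sema3e, the direct ligand of Plxnd1, was at 4.65 ± 0.18, 4.44 ± 0.08 and 4.44 ± 0.07, below the olfactory receptor mark, and without brain replicate 1 it was called higher in brain than in heart (0.26, adjusted p = 0.0461) and in liver (0.26, adjusted p = 0.0301). Sema3b was at 5.92 ± 0.11, 5.99 ± 0.13 and 5.83 ± 0.14.

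Of the 13 semaphorins of classes 4 to 7, which are held in the membrane, 5 were called in at least 1 pair of tissues, where 37.8% of all genes were. Sema7a and Sema5a fell from brain through heart to liver, Sema4b was highest in liver, and Sema6a and Sema6d were lower in brain. Sema7a, the GPI-anchored semaphorin and ligand of Plxnc1 and of integrin β1, was at 11.04, 10.39, 10.80, 11.20 and 10.90 on brain arrays 1 to 5. It was at 9.94, 9.73, 9.995, 9.94 and 9.88 in heart and at 5.78, 6.66, 6.17, 6.08 and 6.46 in liver. The 3 tissues did not overlap, and the liver arrays lay far below the others. Heart exceeded liver by 3.67 (SE 0.15, 12.7-fold, adjusted p = 4.82e-12), brain exceeded liver 24.9-fold, and brain exceeded heart 1.96-fold (adjusted p = 0.000191). Sema7a had the widest spread of all members among the liver arrays (SD 0.34). Its highest liver values were on replicates 2 and 5, which had low macrophage and the highest hepatocyte markers. The part of those cells in the Sema7a level was not tested.

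Sema5a, a transmembrane semaphorin with thrombospondin repeats, was at 7.08, 6.72, 7.33, 6.71 and 6.55 on brain arrays 1 to 5. It was at 6.46, 5.98, 5.98, 5.95 and 5.62 in heart and at 5.05, 5.15, 4.999, 5.16 and 5.16 in liver, with no overlap between tissues. The brain value was 1.84-fold over heart (adjusted p = 0.000323) and at least 2.24-fold over liver (adjusted p = 3.54e-08). Within heart it was highest in replicate 1 (6.46) and lowest in replicate 5 (5.62), which were also the highest and lowest heart arrays for fibroblast and for pericyte and smooth muscle markers. The part of those cells was not tested. Without heart replicates 1 and 3 the brain minus heart difference was 1.03 (adjusted p = 0.000155) and heart minus liver 0.75 (adjusted p = 0.00169).

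Sema4b, a transmembrane semaphorin, was at 7.29, 7.05, 7.05, 6.53 and 6.90 on liver arrays 1 to 5, against 5.89 to 6.18 in brain and 5.89 to 6.09 in heart. All 5 liver arrays lay above all others. Liver exceeded brain 1.96-fold (adjusted p = 3.05e-06) and heart 1.995-fold (adjusted p = 2.77e-06), while brain minus heart was 0.02 (95% interval -0.22 to 0.26). Sema6a, a transmembrane ligand of class A plexins, was at 9.86 ± 0.30 (brain), 10.35 ± 0.06 (heart) and 10.65 ± 0.09 (liver). It was lower in brain than in heart (-0.49, adjusted p = 0.00525) and liver (-0.79, adjusted p = 2.66e-05), and brain replicate 4 was its lowest array at 9.40. Heart minus liver was -0.31 (adjusted p = 0.0511), just short of the threshold, and was called without brain replicate 4 (adjusted p = 0.00959) or brain replicate 5 (adjusted p = 0.0261). Sema6d, which binds Plxna1, was at 9.02 ± 0.49 in brain, where heart had 9.86 ± 0.24 and liver 9.82 ± 0.27. It was lower in brain than in heart 1.79-fold (adjusted p = 0.00597) and than in liver 1.75-fold (adjusted p = 0.00498), and it varied most of all members among the brain arrays, from 8.23 to 9.48.

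The other 8 members of these classes, Sema4a, Sema4c, Sema4d, Sema4f, Sema4g, Sema5b, Sema6b and Sema6c, passed in no comparison. The largest difference among them was that of Sema4c, a ligand of Plxnb2, with brain minus heart at -0.44 (95% interval -0.78 to -0.09, adjusted p = 0.085). It was called without brain replicate 2 (-0.54, adjusted p = 0.0306). Sema4a was at 5.74 ± 0.14, 5.82 ± 0.12 and 5.76 ± 0.14, and Sema6b at 7.58 ± 0.10, 7.77 ± 0.31 and 7.73 ± 0.12. Sema4f, Sema4g and Sema6c had means between 5.24 and 5.65, all below the olfactory receptor mark. Sema4d, known from lymphocytes as CD100, was at 6.37 ± 0.41, 6.41 ± 0.19 and 6.26 ± 0.20. Sema5b, called in no comparison with all arrays, was higher in heart than in liver without liver replicate 5 (0.29, adjusted p = 0.0248).

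Of the 9 plexins, 3 were higher in liver than in both other tissues (10.4% of all genes were) and 0 were higher in brain or in heart than in both (4.7% and 3.73%). Plxnc1 (probe set 10372028), the receptor of Sema7a, was at 11.69, 11.69, 11.69, 11.68 and 11.65 on liver arrays 1 to 5, the tightest of all members in liver (SD 0.02). It was at 5.12, 5.44, 5.09, 5.53 and 5.03 in heart and at 4.68, 4.40, 4.97, 4.73 and 4.76 in brain. Each of the 3 tissues was separate, and the liver arrays stood far above the rest. Liver exceeded heart by 6.44 (heart minus liver -6.44, SE 0.11, at least 62.6-fold, adjusted p = 2.36e-17) and brain at least 62.6-fold. Brain minus heart was -0.54 (adjusted p = 0.00187), between levels that both lay below the mark. Its value was 11.69 on the liver array with the highest macrophage markers (replicate 3) and 11.65 on the one with the lowest (replicate 5). On liver arrays 2 and 5 alone, which had the highest hepatocyte markers, heart minus liver was -6.43. What macrophages or hepatocytes add to the Plxnc1 level was not tested.

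Plxnb2, a receptor of class 4 semaphorins, was at 8.01, 7.49, 7.93, 7.73 and 7.44 on liver arrays 1 to 5. It was at 6.24, 5.98, 5.98, 5.79 and 5.73 in brain and at 5.57, 5.17, 5.60, 5.82 and 5.80 in heart. Liver lay above both without overlap, 3.43-fold over brain (adjusted p = 1.61e-08) and at least 4.03-fold over heart (adjusted p = 1.92e-09). Within liver, replicates 1, 3 and 4 had the 3 highest values, and the same arrays had the highest macrophage markers. On liver arrays 2 and 5 alone, brain minus liver was -1.52 (adjusted p = 1.1e-05), against -1.78 with all 5. What macrophages add to the Plxnb2 level was not tested.

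Plxnd1, the endothelial plexin that restrains sprouting, was at 8.83, 8.99, 8.16, 8.41 and 8.13 on brain arrays 1 to 5. It was at 9.41, 9.87, 9.45, 9.38 and 9.35 in heart and at 10.56, 10.25, 10.16, 10.04 and 9.70 in liver. Brain was lowest without overlap, and the highest heart array, replicate 2, lay above the lowest liver array, replicate 5. Heart exceeded brain 1.99-fold (adjusted p = 0.000578), liver exceeded brain 3.11-fold (adjusted p = 1.05e-06) and liver exceeded heart 1.57-fold (adjusted p = 0.0101). The last call was lost without heart replicates 1 and 3 (-0.61, adjusted p = 0.0541) and on liver arrays 2 and 5 alone (-0.48, adjusted p = 0.211). Plxnb1, the receptor of Sema4d, was slightly higher in brain than in liver (0.24, adjusted p = 0.0274), with overlapping arrays, and lost the call without any 1 of 5 arrays (brain replicates 1 and 5, liver replicates 1, 3 and 4), with differences from 0.20 to 0.24. The other plexins passed in no comparison. Plxna1 was at 7.57 ± 0.06, 7.56 ± 0.10 and 7.61 ± 0.05 in brain, heart and liver, Plxna2 at 9.33 ± 0.34, 9.43 ± 0.27 and 9.15 ± 0.16, and Plxna4 at 8.10 ± 0.13, 8.13 ± 0.29 and 8.22 ± 0.17. For Plxna1 the 95% interval of brain minus liver was -0.17 to 0.11, and for Plxna4 -0.38 to 0.14. Plxna3 and Plxnb3 had means between 5.43 and 5.80.

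**Figure D3:**
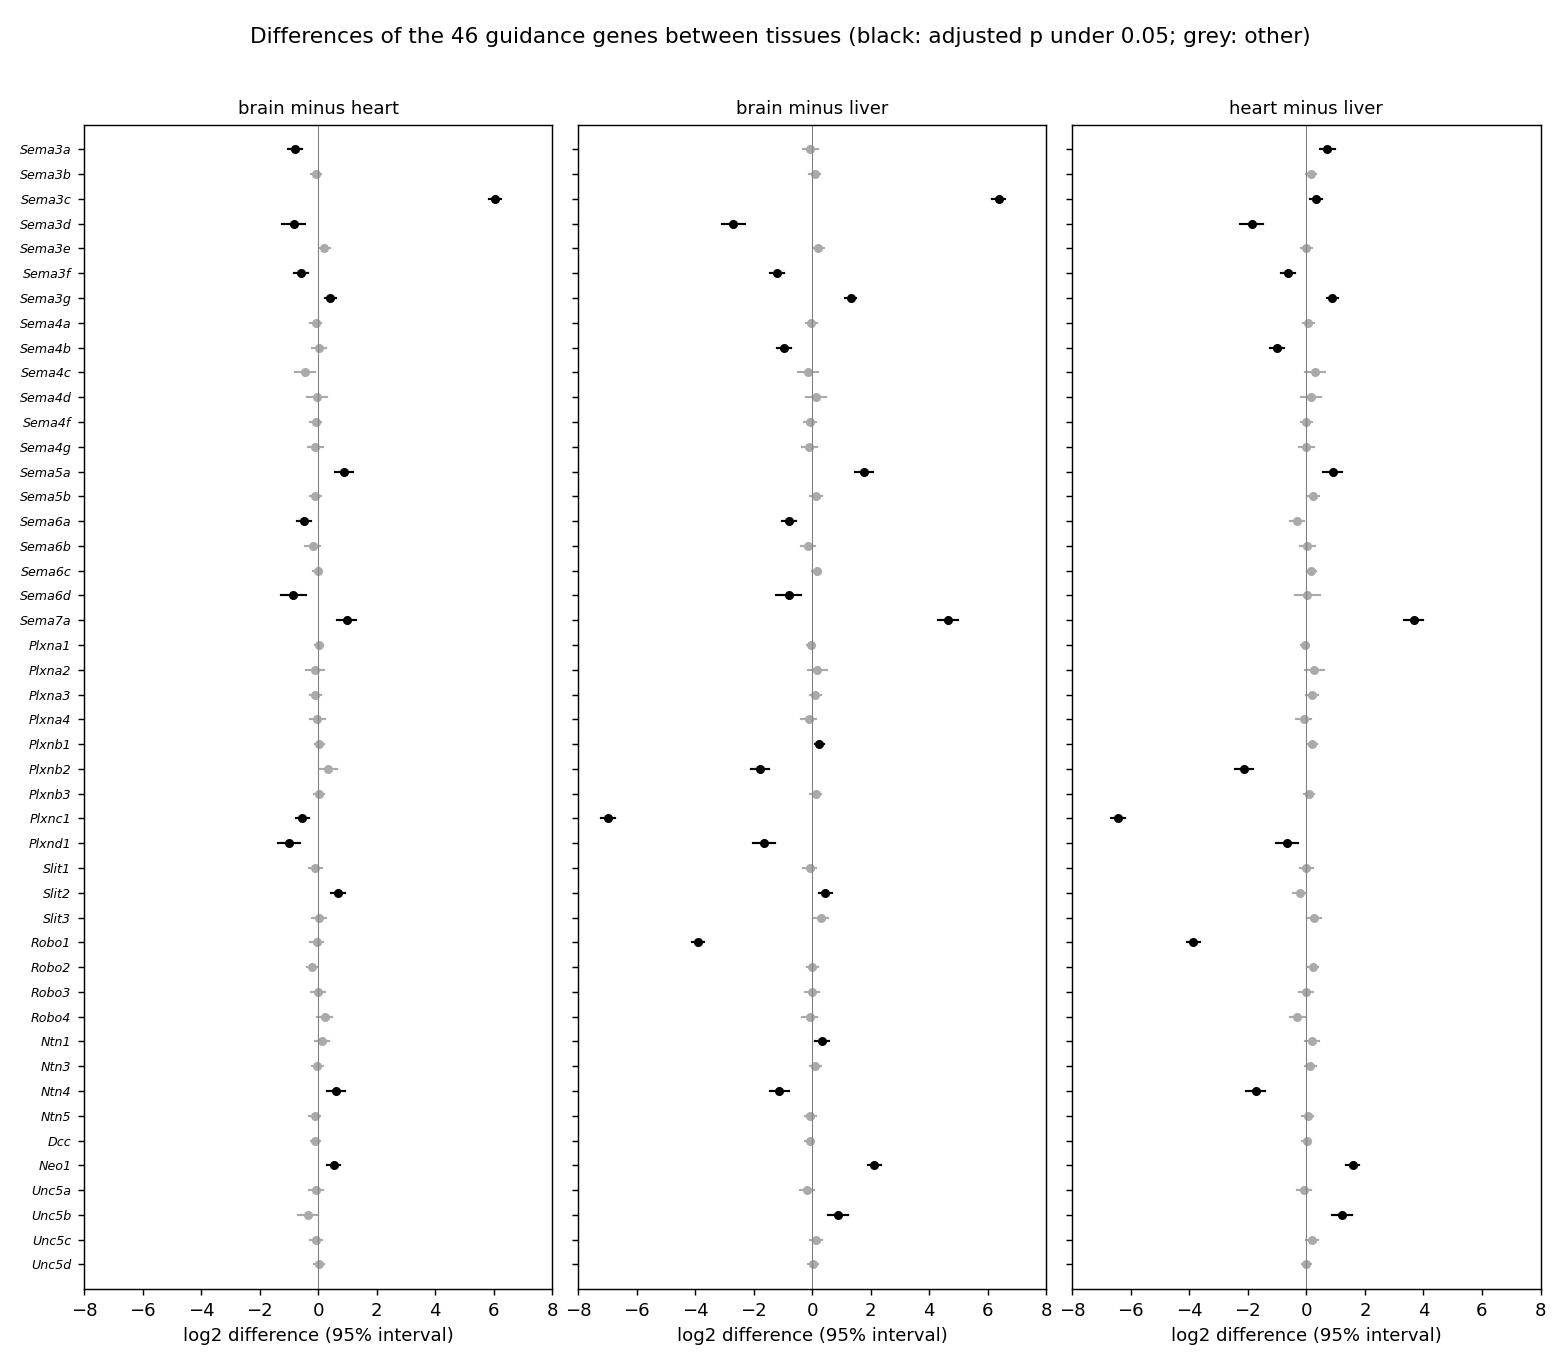
Log2 difference between tissues with its 95% interval (x axis) for all 46 guidance genes (y axis), in 3 panels for brain minus heart, brain minus liver and heart minus liver; black marks an adjusted p under 0.05. Sema3c lies near 6.04 and 6.37 in the panels with brain, and Plxnc1 near -6.98 and -6.44 in those with liver, while 26 genes are grey in all panels.

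Of the 4 robos only Robo1, a receptor of slits, was called in any pair of tissues, where 37.8% of all genes were. Robo1 was at 9.64, 9.68, 9.44, 9.38 and 9.30 on liver arrays 1 to 5. In brain it was at 5.54, 5.71, 5.50, 5.53 and 5.63, and in heart at 5.60, 5.82, 5.71, 5.73 and 5.28. Liver stood apart from both, at least 13.7-fold over brain (brain minus liver -3.90, SE 0.10, adjusted p = 4.09e-15) and at least 13.7-fold over heart (adjusted p = 7.49e-15), while brain and heart overlapped (95% interval of the difference -0.26 to 0.17). On liver arrays 2 and 5 alone, with low macrophage and the highest hepatocyte markers, brain minus liver was -3.90. What either cell type adds to the Robo1 level was not tested. Robo4, the robo of endothelium, was at 9.08 ± 0.19 (brain), 8.86 ± 0.12 (heart) and 9.17 ± 0.29 (liver) and passed in no comparison. Without liver replicate 4, Robo4 was called lower in heart than in liver (-0.41, adjusted p = 0.0165), and likewise on liver arrays 2 and 5 alone (-0.47, adjusted p = 0.0313), against -0.31 (adjusted p = 0.0763) with all arrays. Robo2 and Robo3 were below the olfactory receptor mark in all tissues. Robo2, at 4.36 ± 0.09, 4.57 ± 0.17 and 4.35 ± 0.09, was called higher in heart than in both others without heart replicate 5 (brain minus heart -0.27, adjusted p = 0.0342; heart minus liver 0.28, adjusted p = 0.0176).

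Of the 3 slits, the secreted ligands of robos, Slit2 was the one called in any pair of tissues, where 37.8% of all genes were. Slit2 was at 5.69, 5.52, 5.35, 5.50 and 5.66 on brain arrays 1 to 5. It was at 5.02, 4.76, 4.80, 4.77 and 4.97 in heart and at 4.90, 5.15, 4.86, 5.09 and 5.47 in liver. Brain lay above heart without overlap (brain minus heart 0.68, adjusted p = 0.000193) and above 4 of the liver arrays, with liver replicate 5 inside the brain range (brain minus liver 0.45, adjusted p = 0.00457). On liver arrays 2 and 5 alone the brain minus liver difference was 0.23 (adjusted p = 0.262) and the call was lost. All its means were below the olfactory receptor mark. Slit1 was at 4.97 ± 0.11, 5.06 ± 0.07 and 5.06 ± 0.25, also below the mark. Slit3 was at 5.99 ± 0.23, 5.95 ± 0.15 and 5.70 ± 0.18, with its highest array brain replicate 1 (6.36). That was also the brain array with the highest pericyte and smooth muscle, fibroblast and astrocyte markers. The part of those cells was not tested.

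Of the 4 netrins Ntn4 and Ntn1 were called in any pair of tissues, and of the 6 netrin receptors Neo1 and Unc5b. Over all genes 37.8% were called in any pair. Ntn4 was highest in liver, and Ntn1 was lower in liver than in brain, as were Neo1 and Unc5b. Ntn4, a netrin of the basement membrane that also binds laminin, was at 8.85, 7.998, 8.54, 8.52 and 8.32 on liver arrays 1 to 5. It was at 7.45, 7.53, 7.09, 7.33 and 7.23 in brain and at 6.74, 6.27, 6.87, 6.92 and 6.74 in heart. The 3 tissues were separate, in the order liver, brain, heart. Liver exceeded brain 2.17-fold (adjusted p = 1.12e-05) and heart 3.33-fold (adjusted p = 5.91e-08), and brain exceeded heart 1.53-fold (adjusted p = 0.0064). On liver arrays 2 and 5 alone brain minus liver was -0.83 (adjusted p = 0.00254). Ntn1, the founding netrin, was at 6.58 ± 0.16, 6.45 ± 0.09 and 6.26 ± 0.27. Its brain minus liver difference of 0.32 had an adjusted p of 0.048 and was lost when any single array but liver replicates 2, 4 and 5 was left out (lowest 0.22, without liver replicate 1, adjusted p = 0.127). Ntn3 and Ntn5 passed in no comparison, with means between 5.65 and 5.82.

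Neo1, neogenin, a receptor of netrins and of repulsive guidance molecules, was at 9.11, 8.47, 8.69, 8.64 and 8.79 on brain arrays 1 to 5. It was at 8.27, 8.26, 8.12, 8.20 and 8.17 in heart and at 6.52, 6.55, 6.62, 6.90 and 6.54 in liver. Liver lay far below the other tissues, 4.33-fold under brain (adjusted p = 2.87e-11) and 2.995-fold under heart (adjusted p = 2.26e-09), and brain exceeded heart 1.45-fold (adjusted p = 0.00144). Unc5b, the Unc5 receptor of endothelial tip cells, was at 6.81, 7.02, 6.65, 7.13 and 7.11 on heart arrays 1 to 5. In brain it was at 6.99, 6.88, 6.69, 6.01 and 6.44, and in liver at 5.72, 5.50, 5.60, 5.89 and 5.90. Every liver array was below every other array, 2.33-fold under heart (adjusted p = 9.89e-06) and 1.84-fold under brain (adjusted p = 0.000311), while brain minus heart was -0.34 (adjusted p = 0.171, 95% interval -0.67 to -0.01). Dcc, the classical netrin receptor of neurons, was at 5.03 ± 0.13, 5.12 ± 0.07 and 5.11 ± 0.02, below the olfactory receptor mark in every tissue. So were Unc5a and Unc5c, and Unc5d lay between 5.94 and 5.97. Unc5c was called higher in heart than in liver without liver replicate 5 (0.27, adjusted p = 0.0371).

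Of the 46 members 33 had a mean above the olfactory receptor mark in at least 1 tissue, and 13 did not. Over all 19938 genes, 12407 had such a mean. The 13 were Dcc, Plxna3, Robo2, Robo3, Sema3a, Sema3e, Sema4f, Sema4g, Sema6c, Slit1, Slit2, Unc5a and Unc5c. Of these, Sema3a and Slit2 were nevertheless called. Of the 26 members that passed in no comparison, 15 lay above the mark and among them were Plxna1, Plxna2, Plxna4, Robo4, Sema4c and Sema6b. The differences of all 26 ran from -0.44 to 0.30 over the 3 pairs of tissues. Their smallest adjusted p was 0.0587 (Robo2, heart minus liver), and the outer limits of their 95% intervals were -0.78 and 0.65. A missed threshold does not show that levels were equal, and these intervals give the sizes that 5 arrays a tissue left possible. Over all 46 members the median SD among 5 arrays was 0.14 (brain), 0.13 (heart) and 0.17 (liver).

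Known ligands and receptors were set side by side as tissue patterns, each gene on its own scale. Sema3c was highest in brain, whereas its receptor genes were lowest there. Nrp1 was at 10.17 ± 0.13 (brain), 11.12 ± 0.14 (heart) and 11.47 ± 0.20 (liver), Nrp2 at 8.52 ± 0.35, 9.59 ± 0.18 and 10.02 ± 0.12, and Plxnd1 at 8.50 ± 0.39, 9.49 ± 0.21 and 10.14 ± 0.31. Nrp2 was 2.10-fold lower in brain than in heart (adjusted p = 1.86e-05), and for Nrp1 the log2 difference of brain minus heart was -0.95 (adjusted p = 2.03e-06). Sema7a and Plxnc1 also ran in opposite directions, with the ligand at 10.87 ± 0.31, 9.90 ± 0.10 and 6.23 ± 0.34 and the receptor at 4.71 ± 0.20, 5.24 ± 0.23 and 11.68 ± 0.02. Ntn4 was highest in liver, where Neo1 and Unc5b were lowest. Sema3f and Nrp2 both rose from brain through heart to liver, and Sema3g, another ligand of Nrp2, fell. Slit2 was below the olfactory receptor mark in all 3 tissues, and Robo1 was highest in liver. The means of Ntn1 and its receptor Unc5b were both lowest in liver. Sema5a fell from brain through heart to liver, while its receptor Plxnb3 was called in no comparison. The pairs named here are a part of those set side by side.

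**Figure D4:**
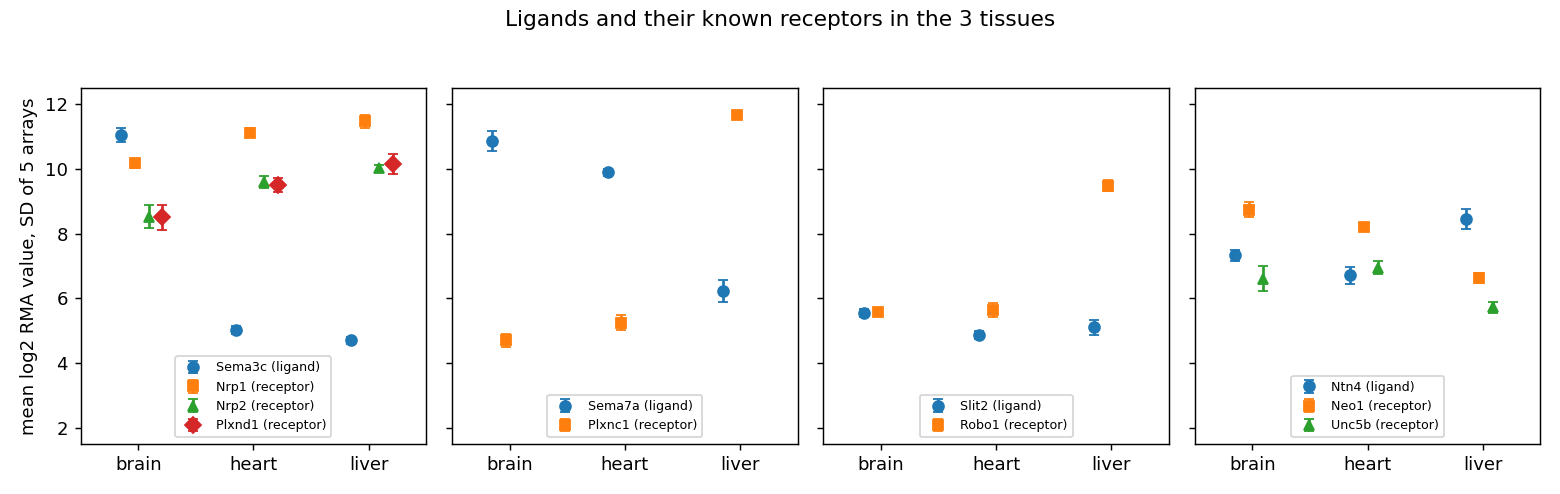
Mean log2 RMA value with the SD of 5 arrays (y axis) in brain, heart and liver (x axis) for 4 ligands, each with known receptors in 1 panel; each gene is to be read across tissues only. Sema3c falls from 11.06 in brain to 4.69 in liver while Nrp1, Nrp2 and Plxnd1 are lowest in brain, and Sema7a and Plxnc1 run in opposite directions.

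Some members are neighbours in the genome. By the order of protein-coding genes in RefSeq (GRCm38.p6), Sema3d and Sema3a on chromosome 5 have 0 genes between them, Sema3a and Sema3e have 3, and Sema3e and Sema3c have 15. Along this stretch of 4 class 3 genes, Sema3d was highest in liver, Sema3a in heart and Sema3c in brain, and Sema3e was called in no comparison. Robo1 and Robo2 on chromosome 16 have 0 genes between them, and Robo1 was higher in liver than in both others, while Robo2 had brain minus liver at 0.01 (95% interval -0.17 to 0.19). Robo4 and Robo3 on chromosome 9 also have 0 between them, and neither was called. On chromosome 10 Ntn4 and Plxnc1, with 8 genes between them, were both highest in liver, and on chromosome 9 Sema7a and Neo1, with 14 between them, were both highest in brain and lowest in liver. Whether such pairs share more of their pattern than other neighbours was not tested.

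Other genes of the same pathways were taken from lists of co-receptors, further ligands and signalling genes, 108 genes of which 98 were measured. Of the 98, 14 stood above both other tissues in brain and 7 below, 10 above in heart and 8 below, and 17 above in liver and 13 below. Over all genes the shares were 4.7%, 2.82%, 3.73%, 3.27%, 10.4% and 5.64% in that order. In pairs, 39 were called between brain and heart, 45 between brain and liver and 44 between heart and liver, where 15.4%, 25.1% and 27.8% of all genes were. The median size of their differences was 0.20, 0.25 and 0.22 in the 3 pairs, and 0.13, 0.14 and 0.16 over all genes. These genes were broadly chosen, and many act in other pathways as well.

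Among the co-receptors and alternative receptors, Flt4, the VEGF-C receptor that can pair with Nrp2, was 5.14-fold higher in liver (9.98 ± 0.29) than in the nearer tissue, brain (7.61 ± 0.18). The integrin subunit Itga6 was 3.08-fold lower in liver, at 8.61 ± 0.22, with brain at 10.23 ± 0.09 and heart at 10.56 ± 0.20. Cd109, a GPI-anchored protein of platelets and endothelium, was at least 1.65-fold higher in heart, at 6.44 ± 0.20. The phosphatase Ptprj was 8.94-fold higher in brain, at 9.34 ± 0.13 against 6.10 ± 0.27 in heart and 6.18 ± 1.09 in liver, where its arrays ranged from 4.86 to 7.14. Among the further ligands, Flrt2, which binds Unc5 receptors, was 3.24-fold higher in brain (9.55 ± 0.21). Vegfc was 4.60-fold lower in liver (6.15 ± 0.12), and Bmp2, which can be bound by the neogenin ligands of the Rgm family, was 48.4-fold higher in liver (11.67 ± 0.13 against 6.07 ± 0.31 in brain).

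Behind the receptors, Fyn, a kinase downstream of class A plexins, was 2.15-fold lower in brain than in heart and stood at 9.04 ± 0.36, 10.15 ± 0.14 and 11.11 ± 0.18 in brain, heart and liver. Dpysl3, a collapsin response mediator, followed the same order at 5.97 ± 0.28, 7.15 ± 0.21 and 8.07 ± 0.34. Mical2, of the redox enzymes that act on actin, was 2.57-fold lower in brain (5.94 ± 0.25). Enah, an actin regulator that binds Robo1, was at least 4.03-fold lower in liver (5.24 ± 0.39), and so was the exchange factor Dock4 (2.03-fold). The actin-binding relatives Ablim1 and Ablim3 differed by tissue, with Ablim1 at least 10.3-fold lower in liver and Ablim3 at least 7.55-fold higher in heart (8.63 ± 0.36). Dapk1, a kinase engaged by Unc5 receptors, was 2.88-fold lower in heart (6.02 ± 0.38). The adjusted p-values of these co-receptor, ligand and signalling genes, each against both other tissues, were at or below 3.12e-05 in the limma fit, the highest being that of Dpysl3 between brain and heart.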

How the data were processed

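The authors deposited log2 values of 35556 probe sets on 15 Affymetrix mouse gene arrays, made by RMA with Affymetrix Power Tools per the submitters' processing notes; the versions and genome build were not given in the sources used here. RMA makes array distributions alike and compresses large differences. Per the labels, 5 ng of RNA from each pool was amplified and tissue digestion took 60 min. The array annotation listed 23410 of these probe sets, 21789 with 1 symbol and 1621 with several (left out), and the other 12146 are unnamed here. Of those with 1 symbol, 21698 matched a RefSeq gene. The probe set with the highest mean was kept for the 999 genes with more than 1, giving 19938 genes with array medians of 5.98 to 6.11. Probes of close relatives may bind each other's RNA.

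A mean per tissue was fitted over all 15 arrays with limma 3.58.1 in R 4.3.3 (12 residual and 4.746 prior degrees of freedom), and adjusted p-values are Benjamini-Hochberg over all genes in each pair of tissues. The fit was tested on simulated data. All members are named, and of the partner lists those at least 2-fold apart from both other tissues. The results of 2 partner genes that meet this rule are not reported here. The comparisons share arrays: each tissue enters 2 of the 3. Alternatives were a replicate block, a filter on low values, a variance trend, 2 scalings, the mean of all probe sets, array weights, fits of 2 tissues, and arrays left out singly or together; leaving out liver arrays 1, 3 and 4 was chosen after seeing the data. The members and lists were chosen with earlier results of these data known. The labels do not say that the 5 pools of a tissue were separate mice, so p-values measure the spread between these samples, which may be partly technical.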

Additional observations from a re-analysis of the deposited data

Results flagged for a closer look

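Of 138 groups of 5 arrays (46 genes in 3 tissues), 11 had an array whose gap to the nearest other array was more than 0.71 of the range of the group (Dixon's 95% value). Chance flags about 1 group in 20. Neo1 was highest on liver replicate 4, at 6.90 against 6.52 to 6.62 on the other liver arrays. Ntn1 was highest on brain replicate 2, at 6.85 against 6.46 to 6.55 on the other brain arrays. Ntn4 was lowest on heart replicate 2, at 6.27 against 6.74 to 6.92 on the other heart arrays. Plxna2 was highest on brain replicate 4, at 9.92 against 9.12 to 9.26 on the other brain arrays. Plxnb3 was lowest on brain replicate 3, at 5.58 against 5.82 to 5.90 on the other brain arrays. Plxnb3 was lowest on liver replicate 1, at 5.41 against 5.71 to 5.80 on the other liver arrays. Plxnd1 was highest on heart replicate 2, at 9.87 against 9.35 to 9.45 on the other heart arrays. Robo4 was highest on brain replicate 1, at 9.41 against 8.94 to 9.06 on the other brain arrays. Sema3f was lowest on heart replicate 2, at 7.60 against 7.90 to 8.001 on the other heart arrays. Sema4d was highest on heart replicate 1, at 6.74 against 6.30 to 6.34 on the other heart arrays. Unc5a was lowest on brain replicate 1, at 4.62 against 4.96 to 5.10 on the other brain arrays. Heart replicate 2 held 3 of the 11, and brain replicate 1 held 2. Heart replicate 1, with the Sema4d value, was also the heart array with the highest fibroblast, cardiomyocyte, macrophage and lymphoid markers. Its lymphoid list averaged 4.80, against 4.62 to 4.70 on the other heart arrays. Brain replicate 1, with the Robo4 value, was the brain array with the highest pericyte and smooth muscle, fibroblast and astrocyte markers. The part of those cells was not tested.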

How the results depend on the processing

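No member's called difference changed direction under any alternative run. Leaving out single arrays moved the count of members called (14 with all arrays) to between 14 and 15 for brain and heart, (19) to between 17 and 19 for brain and liver and (15) to between 14 and 18 for heart and liver. The counts of members apart from both other tissues were 12 to 13 in brain (12 with all arrays), 2 to 3 in heart (2) and 13 to 15 in liver (14), and that of the partner genes 63 to 68 (69). Under the other alternatives the paired counts lay between 12 and 15, 17 and 19, and 13 and 17, and the partner count between 56 and 72. There the counts of members apart from both other tissues were 10 to 12 in brain, 1 to 3 in heart and 12 to 15 in liver. With the filter on low values the heart count was 1, because Sema3a was not tested there. Slit2, one of the members higher in brain, was not tested with that filter either. Of 1341 single differences recomputed under those alternatives, 18 lost and 15 gained a call, and of 2070 without 1 array 21 lost and 12 gained one. Those lost concerned Ntn1, Plxnb1, Plxnd1, Sema3c (heart and liver), Sema6d and Slit2. Sema6d in brain against liver was lost on liver arrays 2 and 5 alone (-0.86, adjusted p = 0.0568). The cause was not tested. Same-numbered arrays of different tissues deviated together weakly (15 pairs, r from -5e-04 to 0.20, 6 over 0.1). Their median r was 0.095, against -0.024 for arrays with different numbers (r from -0.17 to 0.13). Of the 15 arrays, 8 correlated best with their own number in both other tissues. Since not every pair was over 0.1 and the labels name no pairing, the numbers were not taken as pairs; with the replicate block 15, 19 and 17 members were called in the 3 pairs of tissues, against 14, 19 and 15, and 3369, 5282 and 5936 of all genes, against 3070, 5003 and 5538. Robo4 and Sema6a between heart and liver and Sema4c between brain and heart gained a call with the block (adjusted p = 0.0456, 0.0471 and 0.0488). Centring arrays on pan-endothelial genes or on medians moved the pairs by at most 0.05. The number of arrays limits the precision, and signal over background was not used here.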
